A study of Mus musculus with 8 samples.

Results

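A set of 5 genes was examined here, Tchh, Tchhl1, Rptn, Crnn and Flg2, which encode trichohyalin, trichohyalin-like 1, repetin, cornulin and filaggrin-2 and belong to the S100 fused-type family. They were chosen by name, and all 5 have a row among the 15995 gene symbols of the deposited expression table. RNA had been sequenced from peeled newborn mouse epidermis in 4 samples from Zfp750-/- mice (KO) and 4 from wild-type mice (WT), all of the inbred strain C57BL/6J. Zfp750 is a zinc finger transcription factor of differentiating keratinocytes, and the labels give the KO genotype with no word on the deleted stretch or on any Cre driver. The peel followed an overnight soak of the skin in trypsin-EDTA. Nothing in the labels says whether the 4 samples of a genotype came from separate pups or litters, so the tests measure the spread between these samples. The other S100 fused-type genes, Flg and Hrnr, have no row under these symbols, so their levels were not analysed here.

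S100 fused-type proteins start with a pair of calcium-binding EF hands like those of the small S100 proteins and continue as a long run of tandem repeats, which is cross-linked into the hardened scaffold of dying keratinocytes. Trichohyalin is the matrix protein of the inner root sheath and medulla of the hair follicle and of the filiform papillae of the tongue, where peptidylarginine deiminases convert its arginines to citrulline and transglutaminases cross-link it to keratin. Repetin and cornulin are made in the upper layers of stratified epithelia, with high levels in tongue, oesophagus and forestomach, and filaggrin-2 accompanies filaggrin in the granular layer. The genes sit side by side in the epidermal differentiation complex, a cluster of genes for envelope proteins.

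Levels are FPKM, the authors' deposited fragments per length of transcript and sequencing depth, a scale per length on which different genes can be set side by side. Summed FPKM ran from 510965 to 577300 in the KO libraries and from 483416 to 561144 in the WT libraries. The table holds no counts, so the depth is unknown and no counting interval is given. Zfp750 itself stood at 1.53 to 2.68 FPKM in the KO libraries and at 81.6 to 119 FPKM in the WT libraries. The keratinocyte genes Krtdap, Lor and Ivl together reached 10159 to 15409 FPKM in the KO libraries and 10423 to 13246 FPKM in the WT libraries, while Krt1 and Krt10, the keratins that define the suprabasal layers, are listed at 0 in 6 of the 8 libraries and were not compared. In bulk RNA, fewer cells of a type and less RNA per cell cannot be told apart.

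The 5 genes lie on chromosome 3 of GRCm38, all on the plus strand, in a run of 327 kb. In ascending order these are Crnn (93144787 to 93149819), Flg2 (93197278 to 93221391), Rptn (93393699 to 93399442), Tchh (93442330 to 93449077) and Tchhl1 (93468754 to 93471980). GENCODE M21 annotates 18 genes in this run, 7 of them protein-coding, and the 5 S100 fused-type genes are the ones with a row in the table. The annotated gene Gm37857 overlaps the first exon of Rptn on the same strand, so reads there could be assigned to either. Tchh, Tchhl1 and Rptn share a layout of short first exons and a long last one. The longest exon holds 97.6% of the 5823 transcript bases of Tchh, which has 2 exons, 95.1% of the 4146 bases of Rptn and 89.5% of the 2066 bases of Tchhl1, which have 3 exons each. Repeats are visible in the transcripts of Tchh and Rptn, and the most frequent unit of each is shown because it bears on how short reads can be placed.
Tchh repeat unit (chr3:93445700-93445759, plus strand): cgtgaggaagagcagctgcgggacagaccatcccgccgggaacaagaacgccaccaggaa
Rptn repeat unit (chr3:93396371-93396406, plus strand): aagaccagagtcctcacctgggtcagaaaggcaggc
The Tchh unit is 60 bases long and occurs in 4 exact copies, and the Rptn unit is 36 bases long and occurs in 3. Of all windows of 75 bases, the read length, 5.25% recur within the Tchh transcript and 0.00% within those of Rptn, Crnn and Tchhl1. In the longest Flg2 transcript 60.3% of the windows recur. No window of the 5 genes was found in the transcripts of another gene.

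The sequences before the annotated starts are shown because the genes are neighbours of 1 family that did not change together. They cover 250 bases before to 50 after the start, from RefSeq (GRCm38.p6). Capitals mark matches of TGANTCA, a loose form of the motif of the AP-1 family of transcription factors, with any base (N) in the middle.
Tchh (chr3:93442080-93442379, plus strand): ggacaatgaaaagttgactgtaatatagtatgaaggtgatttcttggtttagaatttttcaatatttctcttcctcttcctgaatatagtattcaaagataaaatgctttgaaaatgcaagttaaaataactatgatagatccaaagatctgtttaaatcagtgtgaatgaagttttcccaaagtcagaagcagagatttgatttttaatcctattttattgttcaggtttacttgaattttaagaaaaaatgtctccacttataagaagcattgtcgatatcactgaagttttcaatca
Tchhl1 (chr3:93468504-93468803, plus strand): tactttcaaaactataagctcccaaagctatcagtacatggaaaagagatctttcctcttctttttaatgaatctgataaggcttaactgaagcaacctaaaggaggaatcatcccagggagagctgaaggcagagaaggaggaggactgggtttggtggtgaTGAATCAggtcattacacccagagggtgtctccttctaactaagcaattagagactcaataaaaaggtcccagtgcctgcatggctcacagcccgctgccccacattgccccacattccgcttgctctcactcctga
Rptn (chr3:93393449-93393748, plus strand): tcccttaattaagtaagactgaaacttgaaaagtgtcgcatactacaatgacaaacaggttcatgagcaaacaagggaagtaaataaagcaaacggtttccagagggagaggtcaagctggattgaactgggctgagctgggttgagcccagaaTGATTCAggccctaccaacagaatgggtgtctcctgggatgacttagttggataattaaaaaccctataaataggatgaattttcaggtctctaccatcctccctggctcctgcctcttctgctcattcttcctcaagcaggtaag
Crnn (chr3:93144539-93144838, plus strand): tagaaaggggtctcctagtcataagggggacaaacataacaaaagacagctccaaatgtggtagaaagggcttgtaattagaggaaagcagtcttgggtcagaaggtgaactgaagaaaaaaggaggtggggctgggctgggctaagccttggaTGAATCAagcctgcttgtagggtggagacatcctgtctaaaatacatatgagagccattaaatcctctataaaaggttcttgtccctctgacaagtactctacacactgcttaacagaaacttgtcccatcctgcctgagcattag
Flg2 (chr3:93197023-93197322, plus strand): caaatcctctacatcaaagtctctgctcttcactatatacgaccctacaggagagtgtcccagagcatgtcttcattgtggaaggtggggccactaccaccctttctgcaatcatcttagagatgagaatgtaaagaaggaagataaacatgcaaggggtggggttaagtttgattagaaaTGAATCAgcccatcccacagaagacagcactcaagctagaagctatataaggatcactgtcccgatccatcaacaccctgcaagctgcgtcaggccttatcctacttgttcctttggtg
TGANTCA, which reads alike on both strands, has 1 match in each of the windows of Tchhl1, Rptn, Crnn and Flg2, starting 87, 96, 96 and 69 bases before the start, and none in that of Tchh. In the other family genes, the window of Flg has 1 match, starting 103 bases before the start, and that of Hrnr has none. TGANTCA occurs in 7.81% of all 32851 RefSeq windows of this length. The matches in the windows of the members read TGAATCA or TGATTCA, with A or T in the middle. CCNNAGGC, searched on both strands as the motif described for ZNF750, the human counterpart of Zfp750, has 0 matches in the 5 windows and occurs in 24.1% of all windows. The annotated start of Tchh is the ATG of its coding sequence, whereas the coding sequences of Tchhl1, Rptn and Crnn begin downstream of the start, so the Tchh window lies before a coding start and may not be its promoter. Matches describe letters and not binding.

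Tchh was the member with the clearest difference between genotypes. It stood at 261, 361, 570 and 557 FPKM in KO 1 to 4, against 31.5, 31.9, 23.4 and 19.2 FPKM in WT 1 to 4. Every KO library was above every WT library, and the lowest KO value was several times the highest WT value. The means were 437 ± 151 FPKM in KO and 26.5 ± 6.27 FPKM in WT (SD, n = 4 each), a ratio of 16.5. Tchh rose by 3.95 ± 0.27 on the scale of log2(FPKM + 1) (SE; limma adjusted p = 2.16e-05), the rank 8 among the changes of all 11395 genes tested. Of all tested genes 15.7% passed in either direction, 6.72% as higher in KO and 8.94% as lower. The groups did not overlap for 21.3% of tested genes, 8.78% as higher in KO and 12.5% as lower. Among all genes of the table Tchh ranked between 131 and 254 by FPKM in the KO libraries and between 2171 and 3695 in the WT libraries.

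**Figure D1:**
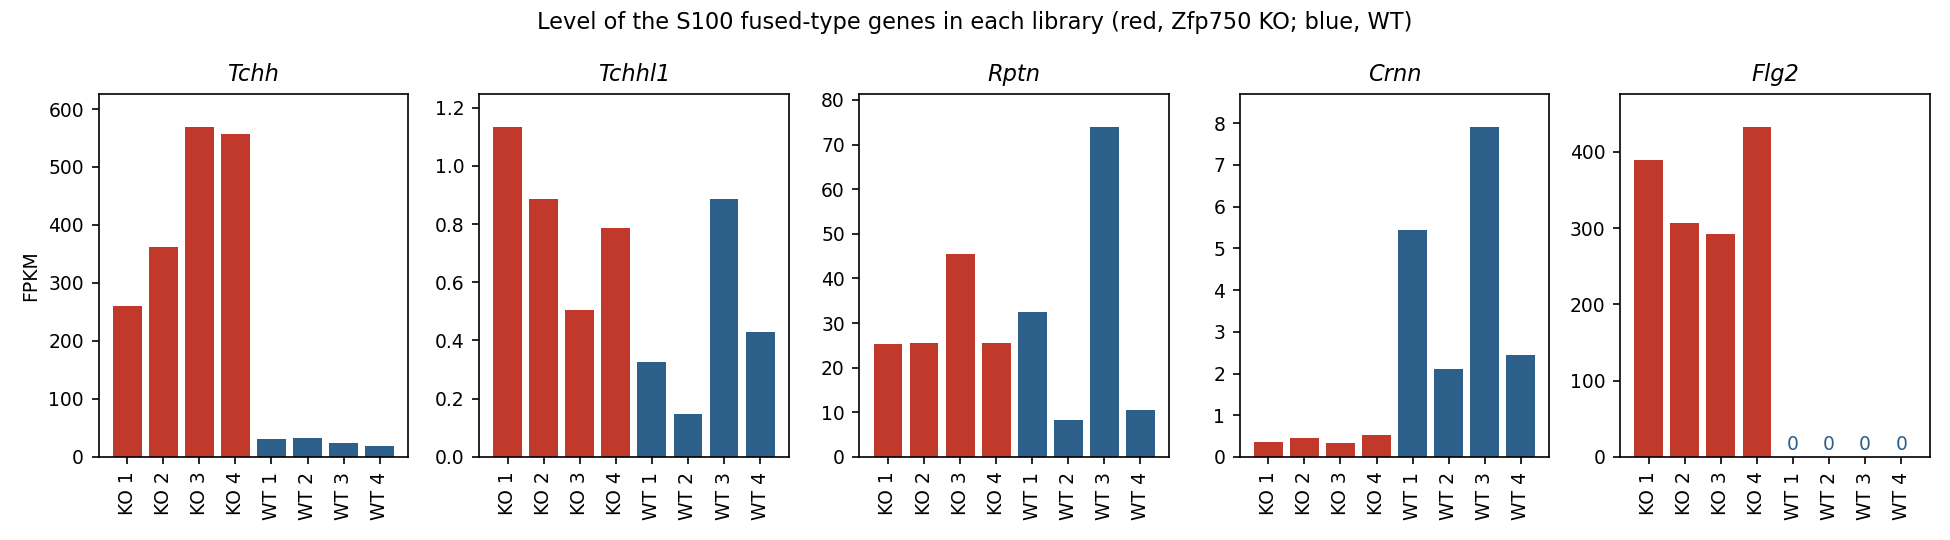
Level of the 5 genes in each library, in FPKM on a linear axis from 0, each bar 1 library (red, KO; blue, WT). Tchh was at 261 FPKM or above in KO and at most 31.9 FPKM in WT, Crnn was at most 0.534 FPKM in KO and at least 2.10 FPKM in WT, Rptn and Tchhl1 overlapped, and Flg2 is listed at 0 in every WT library.

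The Tchh level also differed between libraries of a genotype, along a code in the sample titles (11, 14 or 44) whose meaning the labels do not give. The KO libraries with code 44 had 570 and 557 FPKM, against 361 FPKM with code 14 and 261 FPKM with code 11. The WT libraries with code 44 had 31.5 and 31.9 FPKM, against 23.4 FPKM with code 14 and 19.2 FPKM with code 11. Code 44 was thus the higher in both genotypes. The genotype change of Tchh was 4.11 ± 0.12 within code 44 (log2, SE; limma adjusted p = 1.45e-04) and 3.80 ± 0.22 within codes 11 and 14 (limma adjusted p = 5.06e-04), with 2 libraries of each genotype in both classes. The difference between these changes was 0.31 ± 0.25 (limma interaction adjusted p = 0.609). That interaction passed for 0 of the 11395 tested genes, 0.0%, with 1771 genes at an unadjusted p under 0.05 and no other tool run.

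Crnn, the gene at the other end of the run, was lower in KO. It stood at 0.365, 0.459, 0.333 and 0.534 FPKM in KO 1 to 4, against 5.45, 2.10, 7.92 and 2.45 FPKM in WT 1 to 4. The groups did not overlap, and the spread was far wider in WT, where libraries 1 and 3 were high. Crnn averaged 0.423 ± 0.0913 FPKM in KO and 4.48 ± 2.74 FPKM in WT (SD, n = 4 each), so that the WT mean was 10.6 times the KO mean. It fell by 1.81 ± 0.32 on the scale of log2(FPKM + 1) (SE; limma adjusted p = 0.00462), a scale that understates the change of a gene this low. With a pseudocount of 0.1 in place of 1 the change was -2.94 ± 0.43 (limma adjusted p = 0.00178). Crnn reached the minimum for testing, 1 FPKM in at least 4 libraries, through the WT libraries alone, so its place among the tested genes required it to be higher there. Within title code 44 its change was -1.65 ± 0.39 and did not pass (limma adjusted p = 0.0513), and within codes 11 and 14 it was -1.98 ± 0.41 (limma adjusted p = 0.0246).

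Rptn, between Flg2 and Tchh, showed no difference between genotypes larger than the spread of its libraries. It stood at 25.3, 25.6, 45.5 and 25.6 FPKM in KO 1 to 4, against 32.6, 8.39, 74.0 and 10.6 FPKM in WT 1 to 4. KO values were close to each other except for KO 3, while WT values lay both above and below them. The means were 30.5 ± 10.03 FPKM in KO and 31.4 ± 30.4 FPKM in WT (SD, n = 4 each). On the log2 scale KO minus WT came to 0.41 ± 0.58 (SE) and did not pass (limma adjusted p = 0.698). The mean of FPKM was slightly lower in KO and the mean of log2 values higher, and the sign of the log2 change turned without WT 2 (-0.017) and within codes 11 and 14 (-0.16). Within code 44 it was 0.98 ± 0.60 (limma adjusted p = 0.357), and the difference between the code classes was 1.15 ± 1.21 (limma interaction adjusted p = 0.702).

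Tchhl1, next to Tchh on the far side from Rptn, was scarce in both genotypes. It stood at 1.13, 0.885, 0.503 and 0.786 FPKM in KO 1 to 4, against 0.325, 0.149, 0.886 and 0.428 FPKM in WT 1 to 4. The groups overlapped, with WT 3 above 3 of the KO libraries. Tchhl1 reached 1 FPKM in 1 library and was not among the genes tested. The difference of mean log2(FPKM + 1), KO minus WT, was 0.35 (two-sided exact permutation test over the 8 libraries, p = 0.143, where 0.0286 is the smallest possible), and in a fit of all genes with no minimum it did not pass (limma adjusted p = 0.225).

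Flg2 is listed at 390, 306, 292 and 433 FPKM in KO 1 to 4 and at 0 in each of WT 1 to 4. In KO 1 the Flg2 value was above that of Tchh, and in KO 2 to 4 below it. A listed 0 can be a failed estimate, and Krt1 and Krt10, which all epidermis makes, are also listed at 0 in most libraries, so no difference was drawn from Flg2. Of the 5 members, 3 reached the minimum for testing, and of these 1 rose, 1 fell (Crnn, which reached it through the WT libraries alone) and 1 did not pass. Of all tested genes 6.72% rose and 8.94% fell, and 3 members are too few to set against these shares.

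The balance within the family followed from these values. Trichohyalin mRNA made up 90.7% to 95.4% of the summed FPKM of Tchh, Tchhl1, Rptn and Crnn in the KO libraries, and 22.0% to 75.0% in the WT libraries. The ratio of Tchh to Rptn was 10.3, 14.1, 12.5 and 21.8 in KO 1 to 4, against 0.967, 3.80, 0.316 and 1.80 in WT 1 to 4. The ratio of Rptn to Crnn was 47.9 to 137 in KO and 4.00 to 9.35 in WT. In order of level per length, Tchh was the highest of these 4 in every KO library, followed by Rptn. In WT 1 and WT 3 Rptn was above Tchh, in WT 2 and WT 4 below it, and Crnn and Tchhl1 took the low places in every WT library.

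The 2 WT libraries with the most Crnn and Rptn also had the most mRNA of tongue and oesophagus keratins. Krt4 and Krt13, the keratin pair of the non-cornified lining of mouth and oesophagus, summed with Krt76 and Krt84 of the same list to 0.361 to 1.50 FPKM in KO 1 to 4. The sum was 47.3, 1.14, 34.8 and 4.91 FPKM in WT 1 to 4. All 4 genes of the list had a row, 3 of them reached 1 FPKM in some library, and Krt76 had no value in 4 libraries. Sprr3, a small proline-rich protein of oesophagus, stood at no more than 0.327 FPKM in KO and at 15.9, 11.3 and 3.77 FPKM in WT 1, 3 and 4, with no value in KO 3 and WT 2. In WT 2 the keratin sum of 1.14 FPKM lay inside the KO range, as did Krt4 (0.104 FPKM). Krt13 stood at 0.979 FPKM there, above its highest KO value of 0.480 FPKM. The groups of Krt13 did not overlap. It was below the minimum for testing and passed as lower in the fit with no minimum (limma adjusted p = 0.0470). Crnn stood at 2.10 FPKM in WT 2, above the highest KO value of 0.534 FPKM. In the same library Rptn stood at 8.39 FPKM, below the lowest KO value of 25.3 FPKM. WT 3 also had the highest sums of the skeletal muscle list (30.2 FPKM, against 0.165 to 3.42 in KO and 0.388 to 0.965 in the other WT libraries) and of the inner root sheath keratins, of which 5 of 6 have a row (31.9 FPKM), while the longer list of inner root sheath and companion layer genes was highest in KO 4 (107 FPKM, against 94.4 FPKM in WT 3). The part of such tissue in the levels of Crnn and Rptn was not tested.

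**Figure D2:**
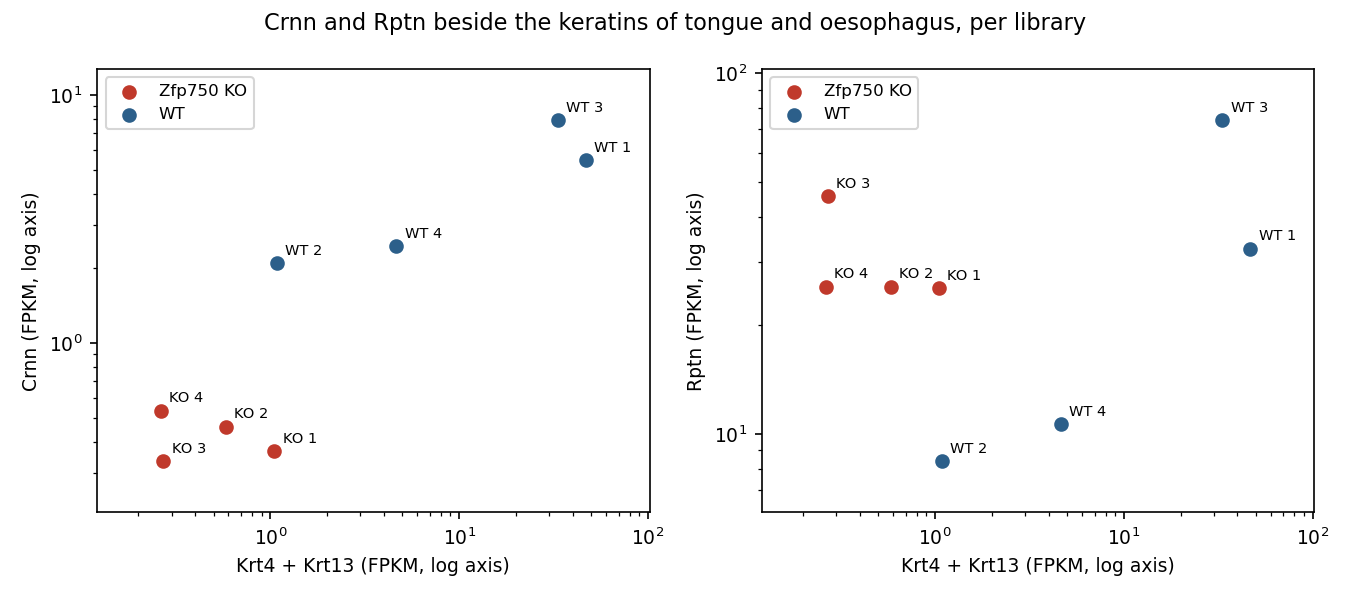
Crnn (left) and Rptn (right) against the summed level of Krt4 and Krt13 in each library, both axes in FPKM and logarithmic (red, KO; blue, WT). WT 1 and WT 3 stood highest for the keratins and for Crnn, the KO libraries were at most 0.534 FPKM for Crnn, and Rptn in KO lay between the WT libraries.

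Without WT 1 and WT 3, which were picked after their keratin levels were seen and so allow no test, the log2 change was -1.20 for Crnn and 1.54 for Rptn, and 4.02 for Tchh. In the wider list of tongue, oesophagus and forestomach genes, 7 of 16 were tested. The wound keratin Krt6b rose (log2 2.56 ± 0.55, limma adjusted p = 0.0122), the envelope protein Scel fell (-1.31 ± 0.24, limma adjusted p = 0.00588) and 5 did not pass. The median log2 change of the tested genes of this list was 0.55, against 0.0072 for all tested genes.

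No tested gene of the inner root sheath, the follicle layer trichohyalin is known from, passed the test. Of 13 genes of the inner root sheath and companion layer, 7 were tested and 0 passed limma's test, with 0 at an unadjusted p under 0.05 and no other tool run. Under the alternatives 0 to 1 passed as higher and 0 to 2 as lower. Their median log2 change was 0.02. Krt25 stood at 0.508, 2.84, 1.34 and 1.56 FPKM in KO 1 to 4, against 3.97, 0.214, 9.90 and 4.37 FPKM in WT 1 to 4 (log2 -0.84 ± 0.58, limma adjusted p = 0.398). Krt71 had 0.115, 2.61, 0.790 and 1.28 FPKM in KO 1 to 4 and 4.40, 0.242, 9.45 and 4.61 FPKM in WT 1 to 4 (-1.15 ± 0.60, limma adjusted p = 0.254). Both were low in WT 2 and spread widely in both genotypes. Krt27 was 0.0898 to 0.520 FPKM in KO and 0.838 to 6.62 FPKM in WT, below the minimum for testing, and passed as lower in the fit with no minimum (limma adjusted p = 0.0292). The summed level of the defining inner root sheath keratins, of which 5 of 6 have a row and none is at 0 in any library, was 1.70 to 12.9 FPKM in KO and 1.77 to 31.9 FPKM in WT, while Tchh was at 261 to 570 FPKM in KO. Gata3 (0.31 ± 0.26, limma adjusted p = 0.497) and Foxq1 (-0.14 ± 0.27, limma adjusted p = 0.774), transcription factors of the inner root sheath and of the medulla, did not pass.

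Of 19 hair shaft genes, 6 were tested (median log2 change 0.41). Of these 0 rose and 2 fell, against 6.72% and 8.94% of all tested genes, with 0 to 3 falling under the alternatives. Those 2 were the hair keratin Krt32 (log2 -0.56 ± 0.16, limma adjusted p = 0.0470, and 0.0517 with no minimum on FPKM) and Selenbp1, a selenium-binding protein (-1.18 ± 0.30, limma adjusted p = 0.0278). Foxn1, the factor whose loss gives the nude mouse, stood at 4.24 to 10.3 FPKM in KO and 3.10 to 4.75 FPKM in WT (0.55 ± 0.25, limma adjusted p = 0.183), and Msx2, a homeobox factor of the hair matrix, at 1.86 to 2.82 FPKM in KO and 0.705 to 2.18 FPKM in WT (limma adjusted p = 0.194). The defining cortex and cuticle keratins, of which 5 of 7 have a row, summed to 0.955 to 2.90 FPKM in KO and 1.59 to 3.64 FPKM in WT, with Krt35 lacking a value in WT 2.

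Transglutaminases and peptidylarginine deiminases, the enzyme families that modify S100 fused-type proteins, were lower or differed by less than the spread. Padi1, a deiminase of the upper epidermis, stood at 0.752, 1.097, 0.844 and 0.883 FPKM in KO 1 to 4, against 5.70, 6.44, 8.65 and 4.96 FPKM in WT 1 to 4, and fell by 1.95 ± 0.17 (log2, SE; limma adjusted p = 1.03e-04). Padi3, the deiminase of the hair follicle that acts on trichohyalin, averaged 0.0864 ± 0.0656 FPKM in KO and 0.952 ± 0.262 FPKM in WT (SD, n = 4 each). Padi4 averaged 0.121 ± 0.0684 FPKM in KO and 1.12 ± 0.409 FPKM in WT (SD, n = 4 each). Groups of all 3 did not overlap. Padi3 and Padi4 were below the minimum for testing, and in the fit with no minimum they passed as lower, with limma adjusted p of 0.00103 and 0.00226. The transglutaminase Tgm5 fell by 1.29 ± 0.14 (limma adjusted p = 2.75e-04). Tgm3, the follicle transglutaminase that cross-links trichohyalin, averaged 76.3 ± 19.99 FPKM in KO and 71.0 ± 16.5 FPKM in WT (SD, n = 4 each; limma adjusted p = 0.809), and Tgm1 averaged 148 ± 16.6 FPKM in KO and 148 ± 26.5 FPKM in WT (limma adjusted p = 0.980). Of the 9 enzymes, 4 were tested, 0 rose and 2 fell (median log2 change -0.64), against 6.72% and 8.94% of all tested genes. With no minimum on FPKM 5 of the 8 with a row fell, beside 1211 of all 15991 genes in that fit. Among the 5 were Padi2, Padi3 and Padi4, which were scarce even in WT, at means of 0.265, 0.952 and 1.12 FPKM.

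**Figure D3:**
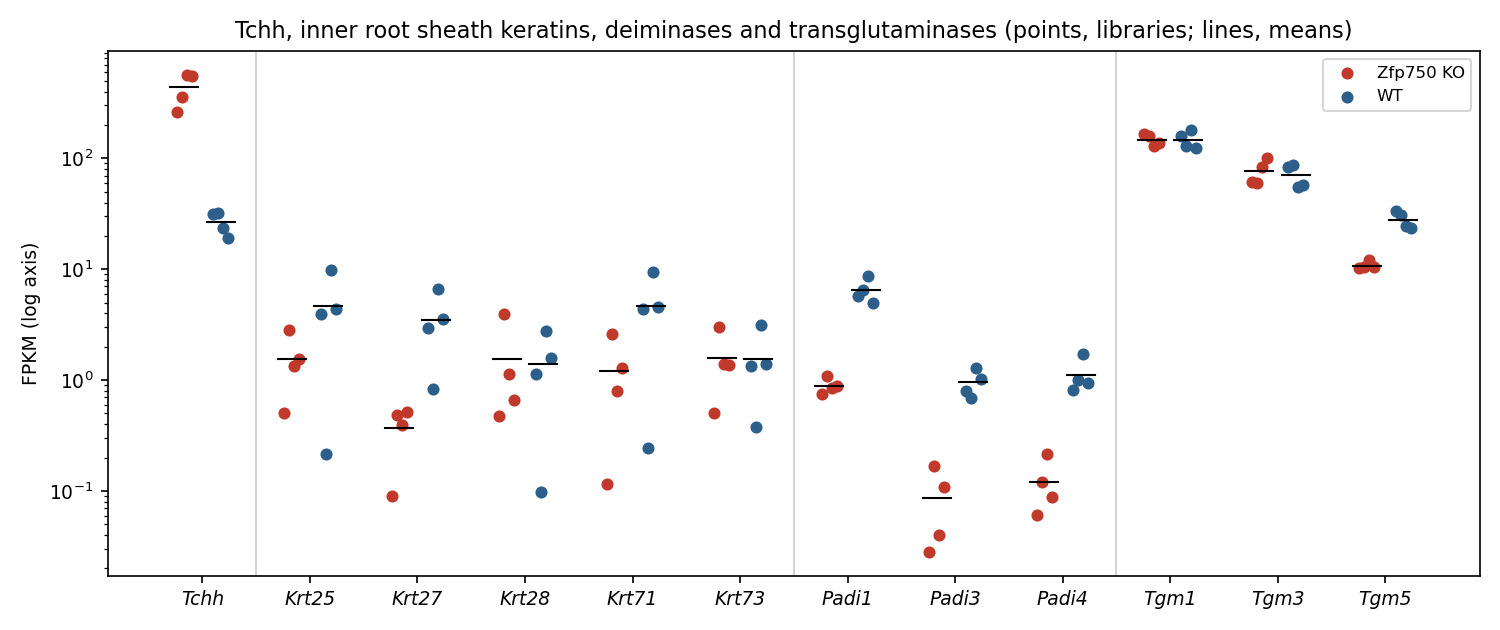
Tchh, 5 inner root sheath keratins, 3 deiminases and 3 transglutaminases, in FPKM on a logarithmic axis, each point 1 library and each line a group mean (red, KO; blue, WT). Tchh lay above all WT values in KO and Padi1, Padi3, Padi4 and Tgm5 below them, while the keratins other than Krt27 overlapped between genotypes.

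Among proteases that process filaggrin-type proteins, those that changed were lower in KO, and envelope proteins changed in both directions. Of 10 proteases, all tested, 0 rose and 4 fell (median log2 change -0.34), against 6.72% and 8.94% of all tested genes. The 4 were the convertase Pcsk6 (log2 -1.16 ± 0.14, limma adjusted p = 5.93e-04), Blmh (-0.83 ± 0.14), which breaks filaggrin down to amino acids, the caspase Casp14 (-1.40 ± 0.25) and the channel-activating protease Prss8 (-1.04 ± 0.21), with limma adjusted p between 5.93e-04 and 0.00898 for the 4. Asprv1, the protease that cuts the linkers of profilaggrin, averaged 4644 ± 625 FPKM in KO and 4604 ± 568 FPKM in WT (limma adjusted p = 0.974). Of 10 tested envelope proteins among 11, 2 rose, involucrin (Ivl, 1.46 ± 0.19) and Sprr1b (2.45 ± 0.50), and 2 fell, Cdsn (-1.17 ± 0.18) and Lce1m (-1.38 ± 0.18), with a median log2 change of -0.13.

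Among 24 regulators known for the epidermal differentiation complex, all tested, 4 rose, 1 fell and 19 did not pass (median log2 change 0.15). Among all tested genes 6.72% rose and 8.94% fell. The count of regulators that rose was 1 without WT 1, 1 without WT 2, 2 without KO 3 and 8 with array weights, and the count that fell was 0 to 3. Among the regulators that rose were the receptor Notch1 by 1.61 ± 0.23 (limma adjusted p = 0.00154), the Ahr partner Arnt by 0.60 ± 0.14 (limma adjusted p = 0.0182) and the oxidative stress factor Nfe2l2 by 1.102 ± 0.28 (limma adjusted p = 0.0268). Hopx, a homeodomain cofactor, fell by 0.61 ± 0.12 (limma adjusted p = 0.00971). Of the AP-1 subunits, whose motif was searched above in a loose form, Fosl1 stood at 39.5, 21.5, 8.07 and 1.87 FPKM in KO 1 to 4. In WT it was at 1.77 to 3.54 FPKM. Junb stood at 563 to 1044 FPKM in KO and 229 to 601 FPKM in WT. Fos averaged 1004 ± 257 FPKM in KO and 1064 ± 443 FPKM in WT, and Jun 432 ± 123 FPKM in KO and 389 ± 165 FPKM in WT (SD, n = 4 each). None of the 4 passed, with limma adjusted p of 0.108 for Fosl1, 0.0842 for Junb, 0.990 for Fos and 0.710 for Jun.

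The nearest listed gene beyond Crnn, Lce1m, fell by 1.38, and the nearest beyond Tchhl1, the calcium-binding S100a11, averaged 445 ± 82.4 FPKM in KO and 394 ± 34.6 FPKM in WT (SD, n = 4 each; limma adjusted p = 0.524). S100a10, the next tested gene on that side, rose by 0.90 ± 0.20 (log2, SE; limma adjusted p = 0.0134). Across the whole complex, from S100a1 to S100a10, 53 named protein-coding genes were tested, of which 10 rose and 14 fell, with a median log2 change of 0.03. Among all tested genes 6.72% rose and 8.94% fell. Tchh had the rank 2 among the 53 by log2 change, after S100a9 (5.09 ± 0.57), which pairs with S100a8 as calprotectin. Crnn had the rank 3 from the low end, after Sprr4 (-3.19 ± 0.32) and beside Lce1h (-1.81 ± 0.28). Crnn reached the minimum for testing through the WT libraries alone. The scale of log2(FPKM + 1) also understates the change of a gene this low.

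**Figure D4:**
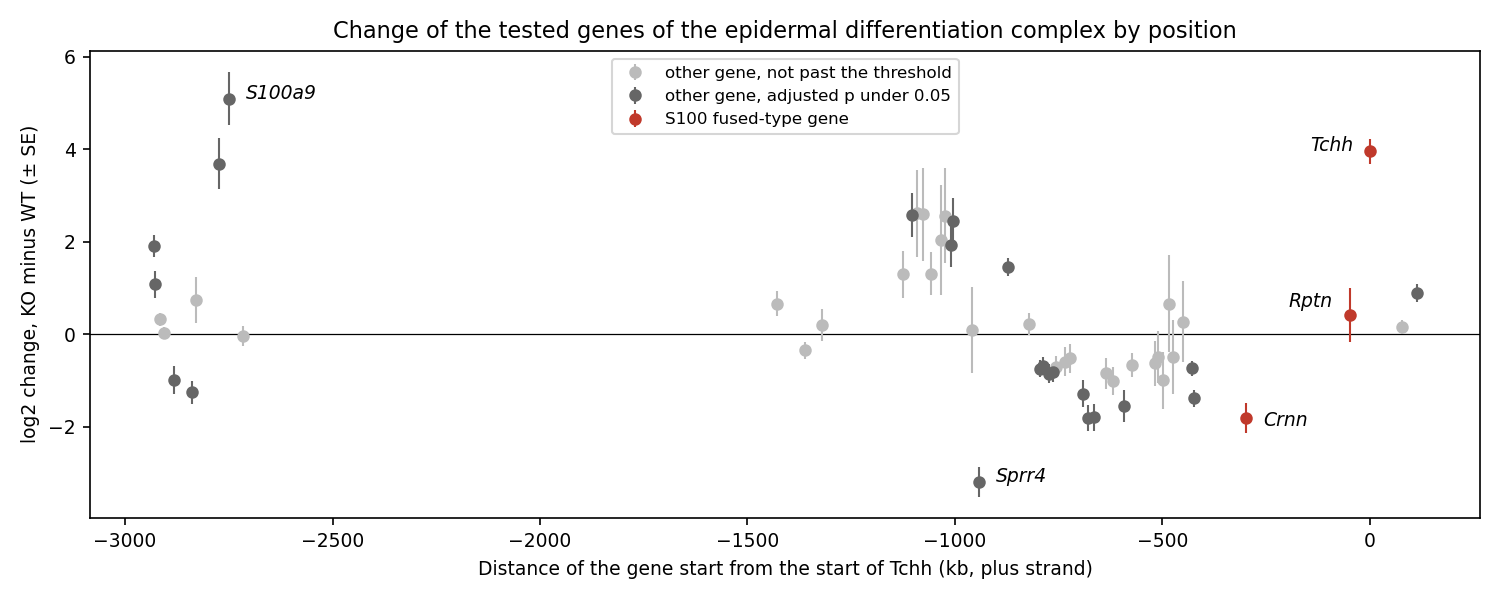
Log2 change (KO minus WT, ± SE) of the 53 tested genes of the epidermal differentiation complex against the distance of their starts from the start of Tchh, in kb (red, S100 fused-type genes; dark grey, other genes at adjusted p under 0.05; light grey, genes that did not pass). Tchh at 3.95, Rptn at 0.41 and Crnn at -1.81 lay within 327 kb of each other.

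By pattern over the 8 libraries, the named genes nearest to Tchh were Slc15a3, Alox8, Rab11fip5, Fetub and Saa1. Likeness was measured as the root mean square difference of log2(FPKM + 1) over the 8 libraries, each gene centred on its own WT mean, and ran from 0.31 for Slc15a3, a lysosomal peptide and histidine transporter, to 0.59 for Saa1, an acute-phase protein. Alox8 (0.33) is a lipoxygenase, Rab11fip5 (0.43) a Rab11 effector of recycling endosomes and Fetub (0.52) a protease inhibitor of the cystatin family. Slc15a3 stood at 22.5, 33.9, 36.3 and 40.3 FPKM in KO 1 to 4 and at 1.32 to 1.70 FPKM in WT. That these genes were higher in KO follows from choosing them by likeness to Tchh over these same libraries. Alox8 and Saa1 reached the minimum for testing through the KO libraries alone. The genes nearest to Crnn were Glcci1 (0.22), the monocarboxylate transporter Slc5a8 (0.23), Cpt1a (0.24), which brings fatty acids into mitochondria, the envelope protein Lce1i (0.28) and the scaffold protein Homer2 (0.29). Slc5a8 stood at 1.04 to 2.20 FPKM in KO and at 9.04, 3.93, 17.5 and 4.18 FPKM in WT 1 to 4. WT 1 and WT 3 were the highest, which follows from choosing it by likeness to Crnn over these same libraries. The genes nearest to Rptn, the muscle-type tropomyosin Tpm2 (0.51), the retinol dehydrogenase Dhrs9 (0.56), the mitochondrial cyclophilin Ppif (0.61), the keratin-associated protein Krtap12-1 (0.62) and Nat8l (0.63), which makes N-acetylaspartate, were farther from it.

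**Figure D5:**
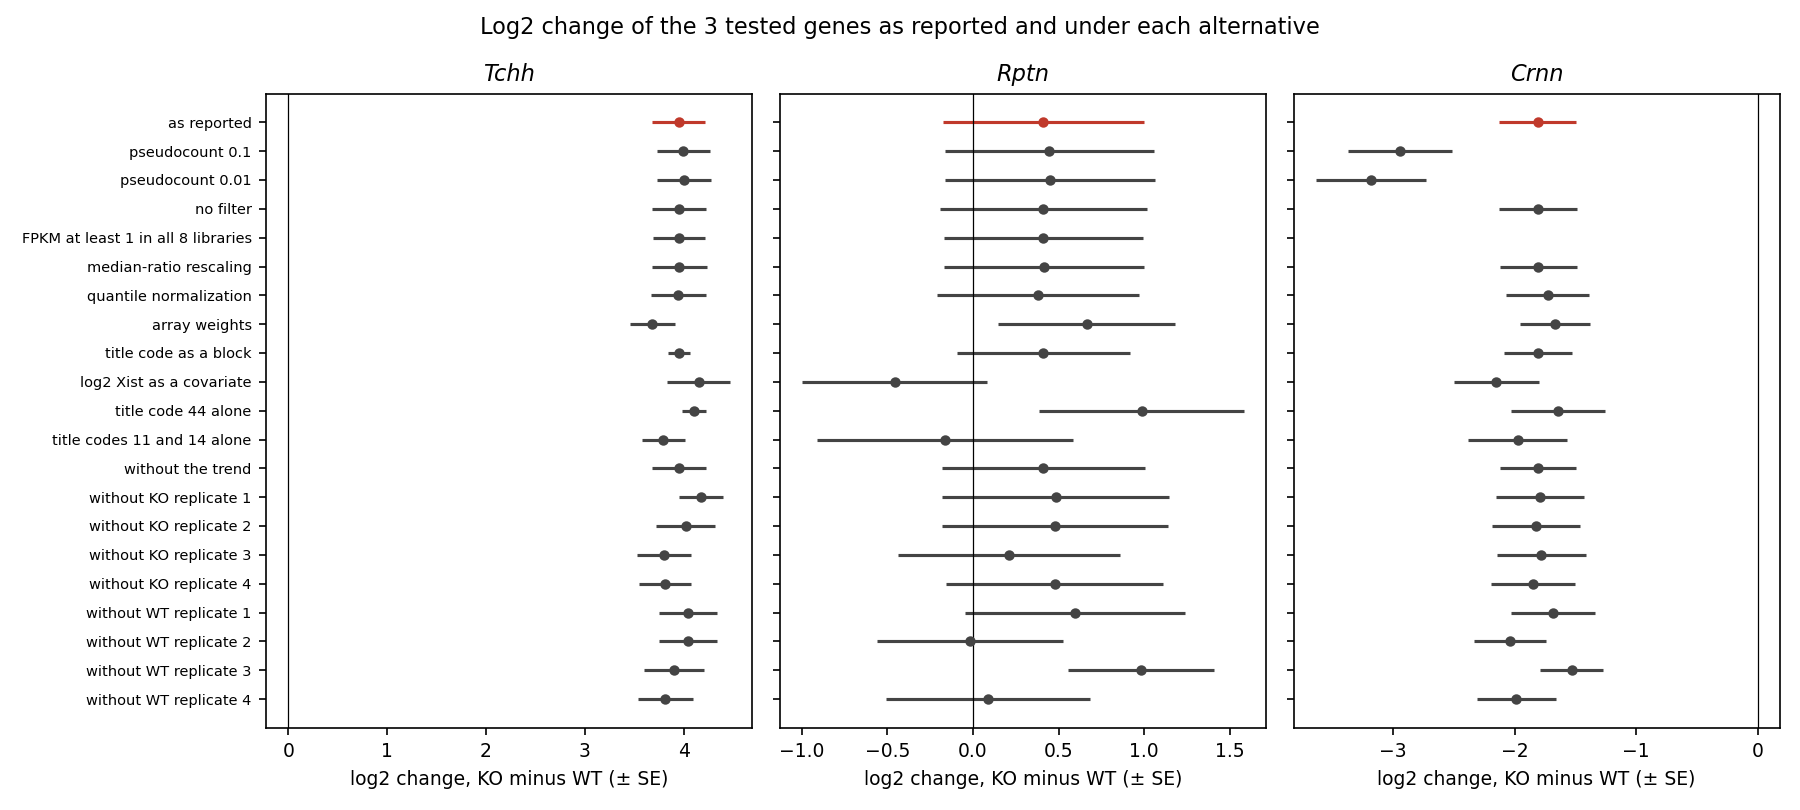
Log2 change (KO minus WT, ± SE) of Tchh, Rptn and Crnn as reported (red) and under each other setting (grey). Tchh stayed between 3.69 and 4.18, Crnn between -3.19 and -1.53, and Rptn lay on both sides of 0 in the settings plotted, which do not include leaving out WT 1 and WT 3 together. Crnn has no value where 1 FPKM was asked in all 8 libraries.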

How the data were processed

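RNA sequencing had been done on ribosome-depleted total RNA with a stranded kit in paired-end mode, per the labels' protocols. The deposited table holds FPKM values made by the authors, 1 per gene symbol and library, with mm10 as the build per the submitters' processing notes. Alignment, quantification and the use of strand, not given in the sources used here, could not be checked. For 2029 genes a value was missing in some library and taken as 0. Values were transformed to log2(FPKM + 1). Genes with at least 1 FPKM in at least 4 libraries (11395) were compared by limma's moderated test (limma 3.58.1 under R 4.3.3, variance trend on), at a Benjamini-Hochberg adjusted p of 0.05. Krt1, Krt10, Flg2 and Rn45s, listed at 0 in some libraries and above 100 FPKM in others, were left out. The fit was tested on simulated data. Coordinates are from GENCODE M21 (GRCm38, the same build as mm10) and promoter windows from RefSeq. Libraries are numbered in accession order within a genotype.

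The members, gene lists and tests were chosen with earlier results of these data known. Named genes are the members, Zfp750, the neighbours in the run, up to 4 genes with the smallest p in each list with passing genes as examples, and the 5 nearest genes by pattern. Sprr3, Krt4, Krt13, Krt27, Padi3, Padi4, Tgm1, Asprv1, Fosl1, Junb, Fos, Jun, Maf, Sprr4, Lce1h, S100a9 and S100a10 were chosen after their values were seen, and the motifs were chosen last. Lists of basal keratinocyte, fibroblast, melanocyte, Langerhans, T, Merkel, endothelial, adipocyte and red blood cell markers are given in the closing section. Alternatives covered the pseudocount, filter, scaling, weights, covariates, title code and leaving out libraries.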

Additional observations from a re-analysis of the deposited data

Results flagged for a closer look

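Rptn in KO 3, at 45.5 FPKM, stood apart from the other KO libraries, which lay between 25.3 and 25.6 FPKM. Its gap to the next value took more than 0.829 of the range of the group. It was the only such value among 11 groups of 4 libraries looked at (the 5 genes and Zfp750 in both genotypes, less the WT group of Flg2), and chance gives such a gap in about 1 in 20 groups. Without KO 3 the log2 change of Rptn was 0.21 ± 0.65 (limma adjusted p = 0.882).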

How the results depend on the processing

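Tchh kept its direction and its call under all 20 alternatives, between 3.69 and 4.18 (limma adjusted p of 2.66e-07 to 5.06e-04), and between 3.80 and 4.18 with 1 library left out. Crnn kept both under 18 of 19, between -3.19 and -1.53 (limma adjusted p of 0.00176 to 0.0513), and missed the threshold with title code 44 alone (-1.65, adjusted p = 0.0513, 2 libraries a group). With 1 library left out it lay between -2.04 and -1.53. It could not be tested where 1 FPKM was asked in all 8 libraries. Rptn passed under none of 20 alternatives, among them 0.98 without WT 3, and changed sign with log2 Xist as a covariate (-0.46), with codes 11 and 14 alone (-0.16) and without WT 2 (-0.017); with 1 library left out it lay between -0.017 and 0.98. Tchhl1 moved to 0.89 and 1.08 with pseudocounts of 0.1 and 0.01, and lay between 0.25 and 0.48 with 1 library left out. Without WT 1 and 3, added after the data were seen and not tested, Rptn was at 1.54 and Crnn at -1.20. The causes were not tested. Xist stood at 126, 84.6, 150.4 and 1.84 FPKM in KO 1 to 4 and at 0.0223, 0.0087, 118 and 0.00825 FPKM in WT 1 to 4. The covariate thus sets WT 3 apart from the other WT libraries and KO 4 from the other KO libraries. It is also unevenly spread over the genotypes, high in KO 1 to 3 and in WT 3.

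The count of genes called, 1785, was 3669 with array weights, 1141 with log2 Xist as a covariate and 1181 with code 44 alone. It was 1094 to 2264 with 1 library left out, lowest without WT 1 (1094) and WT 2 (1187) and highest without KO 4 (2264). KO 4 had the lowest array weight (0.327), the fewest genes at 1 FPKM or more (10636) and the most missing values (1275). Of the genes of the 7 context lists, the number called higher was 7, with 15 under array weights and 4 to 10 with 1 library left out, lowest without WT 1 or WT 2 (4 each). The number called lower was 12, with 10 to 15 with 1 library left out. The difference of the Crnn change between title code classes, 0.33, turned to -0.20 without WT 2 and -0.35 without WT 3 and reached 1.01. That of Rptn, 1.15, turned to -0.20 without WT 3 and reached 2.49, and that of Tchh lay between 0.08 and 0.55. With the title code as a block, the Tchh change had an SE of 0.11 in place of 0.27 and no call of a member changed. That block called 2261 genes. Deviations of KO and WT libraries from their group means correlated at -0.15 to 0.43 for pairs with the same code and at -0.43 to 0.20 for pairs with different codes. Among same-code pairs that of KO 3 and WT 1 was negative (-0.15) and the others were positive. The labels do not explain the code, so it was used as a block only as an alternative and not to pair the libraries. The depth is unknown, which limits what can be said of Tchhl1 and of Crnn in KO, all below 1.14 FPKM.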

Other observations

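Maf, a transcription factor of keratinocyte differentiation, stood at 11.6, 12.96, 27.1 and 30.6 FPKM in KO 1 to 4 and at 8.05 to 10.7 FPKM in WT. Gata3 stood at 26.2, 35.2, 49.3 and 71.0 FPKM in KO 1 to 4 and at 31.5 to 40.2 FPKM in WT, and Foxn1 at 4.24, 4.50, 6.84 and 10.3 FPKM in KO 1 to 4. In these 3 genes, picked after their values were seen, KO 3 and KO 4 were above KO 1 and KO 2, as for Tchh. Maf did not pass (limma adjusted p = 0.0562).

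Of the markers of other cells, the basal keratinocyte list had 3 of 5 tested genes higher (Krt14, Col17a1 and Itga6, of which Col17a1 alone passed with no minimum on FPKM) and summed to 2157 to 5962 FPKM in KO and 1094 to 3414 FPKM in WT. Among all tested genes 6.72% were higher and 8.94% lower. The Langerhans cell list had Cd74 lower among 3 tested, and summed to 5.46 to 8.58 FPKM in KO and 8.50 to 19.1 FPKM in WT. In the T cell list Cd3g, the single gene tested, was lower, with sums of 0.628 to 1.56 FPKM in KO and 3.13 to 6.64 FPKM in WT. Cd3g reached the minimum for testing through the WT libraries alone, so its place among the tested genes required it to be higher there. The Merkel cell list had Krt8 and Krt18 higher and Chga lower, while Krt20 stood at no more than 0.687 FPKM in any library. Krt18 reached the minimum for testing through the KO libraries alone, so its place among the tested genes required it to be higher in KO. The fibroblast list (4 tested), the melanocyte list (5 tested) and the red blood cell list (2 tested) had 0 genes that passed, with 0 at an unadjusted p under 0.05 in each. The endothelial list, with 1 gene of 3, was at most 0.260 FPKM in KO and 0.495 FPKM in WT, and the adipocyte genes were not analysed here. The part of these cells in the results was not tested.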
